A study of Mus musculus with 8 samples.

Results

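Lipid-associated macrophage and foam cell genes were followed in cultures of cardiac adipose-derived stem cells (cADSC), the plastic-adherent stromal cells of mouse cardiac adipose tissue. The group holds Trem2, Plin2, Gpnmb, Spp1, Lgals3, Cd9, Fabp5, Abca1, Abcg1 and Apoe, that is 10 of the 52636 genes in the files. They were listed by name, as genes that mark macrophages loaded with lipid, and no measured value enters the rule, although earlier results of these data were known when the list was made. RNA-sequencing of 8 libraries compared 4 groups, namely untreated WT cADSC, WT cADSC given 100 µM UTP daily for 7 days, untreated P2Y2 KO cADSC and P2Y2 KO cADSC given the same UTP treatment. Every group was represented by 2 libraries. A library is called a pool here because it combined the RNA of 2 cultures, n = 2 is the number of pools, and a p-value measures the spread between them. All cultures were kept for 7 days in DMEM with fetal bovine serum. The labels give the strain of every library as C57BL/6J, whereas the methods of the study describe the P2Y2 KO mice as CD1/C57BL/6J. Male and female mice aged 12 to 16 weeks were used at random. P2Y2 is a receptor for ATP and UTP, and the comparisons ask which responses to UTP depend on it. WT and P2Y2 KO cADSC came from different mice, so that genotype, mouse, culture and any difference in strain cannot be told apart.

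A macrophage that takes up more lipoprotein, dead cell material or free lipid than it can break down stores the surplus in lipid droplets and becomes a foam cell. In fat, in the artery wall and in damaged tissue such cells share a programme in which TREM2 senses lipid at the surface, PLIN2 coats the droplets, ABCA1, ABCG1 and APOE carry cholesterol out, and osteopontin, galectin-3 and GPNMB are made in large amounts. TREM2 is nearly restricted to myeloid cells, whereas the other members are also made by stromal cells, by adipocytes or by both.

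UTP moved 3 of the 10 genes when both genotypes were averaged, against 2.55% of all genes: Trem2 and Plin2 fell and Spp1 rose. Of all genes, 2.12% passed as lower and 0.428% as higher. Each of the 3 calls was lost on leaving out any 1 of 3 or 4 libraries. The other 7 members did not pass the test in that comparison. Between genotypes, 6 members were higher in untreated P2Y2 KO than in untreated WT pools (10.5% of all genes were), and 8 were higher in P2Y2 KO pools when both had received UTP (9.52% of all genes). Levels are given in CPM, the counts of a gene per 1000000 counts of its library. The test was edgeR's quasi-likelihood test across 17529 genes, with p-values adjusted by Benjamini-Hochberg over all of them and a threshold of 0.05, and all 10 members were above the minimum level for testing.

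The promoters of the 3 genes that UTP moved are shown because they place the start of each transcript and the short motifs found there. They are RefSeq sequences of build GRCm38.p6, read 5′ to 3′ in the direction of transcription, from 250 bases before to 50 bases after the start. Capitals mark exact matches, on either strand, to GAGGAAG, the core bound by the myeloid factor PU.1, to AGGTCA, the hexamer bound by nuclear receptors, and to CACGTG, the core bound by TFEB and related factors of lysosome genes. The window of Trem2 is chr17:48346151-48346450 on the plus strand, and that of Plin2 is chr4:86670010-86670309 on the minus strand. Spp1 has 2 windows, of which the first is shown, chr5:104434861-104435160 on the plus strand.
Trem2: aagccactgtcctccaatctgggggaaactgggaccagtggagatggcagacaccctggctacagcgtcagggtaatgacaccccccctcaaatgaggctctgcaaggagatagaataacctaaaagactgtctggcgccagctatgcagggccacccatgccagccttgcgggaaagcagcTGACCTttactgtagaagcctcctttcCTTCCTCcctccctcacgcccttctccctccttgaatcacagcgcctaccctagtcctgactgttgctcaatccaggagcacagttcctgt
Plin2: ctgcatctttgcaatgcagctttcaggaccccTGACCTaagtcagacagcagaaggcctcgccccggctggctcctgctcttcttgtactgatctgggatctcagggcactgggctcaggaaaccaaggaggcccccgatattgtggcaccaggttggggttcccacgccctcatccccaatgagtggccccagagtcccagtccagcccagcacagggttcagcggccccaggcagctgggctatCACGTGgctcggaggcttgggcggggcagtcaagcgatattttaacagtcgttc
Spp1: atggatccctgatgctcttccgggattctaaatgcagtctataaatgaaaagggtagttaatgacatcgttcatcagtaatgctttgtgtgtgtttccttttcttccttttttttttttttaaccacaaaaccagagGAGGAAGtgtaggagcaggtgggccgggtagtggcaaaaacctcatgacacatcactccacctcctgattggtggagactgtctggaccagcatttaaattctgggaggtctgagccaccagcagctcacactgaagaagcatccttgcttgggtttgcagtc

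Counted from 0 at the start, Trem2 held the reverse complement of GAGGAAG at -41 to -35 and that of AGGTCA at -68 to -63. Plin2 held CACGTG at -4 to 1 and the reverse complement of AGGTCA at -218 to -213. Spp1 held GAGGAAG at -113 to -107. Of the 10 members, 8 had a promoter in the reference table (Fabp5 and Abcg1 had none), with 11 windows among them. GAGGAAG stood in 2 of these 8 genes against 13.6% of 32851 mouse promoters, and AGGTCA in 2 against 16.3%. CACGTG stood in 2, Plin2 and Abca1, against 7.15% of promoters. Of the further motifs searched on both strands, the AP-1 site TGAGTCA was found only in the window of Gpnmb (5.2% of promoters) and the M-box core CATGTG only in that of Cd9 (14.2%). The NFAT core TGGAAA was in Gpnmb, Spp1 and Apoe (21.4%), for Spp1 only in its second window, at -203 to -198, which is not shown. A member counts once over all its windows, 2 for Spp1 and 3 for Apoe, whereas the shares are per promoter. The LXR element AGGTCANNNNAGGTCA was in none of the 11 windows and in 0.0152% of all promoters. AGGTCA lies within that element, and none of the other motifs contains another. A match describes the letters and not the binding of a factor.

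Several features of the libraries bear on all values below. P2ry2, the targeted gene, was read in every library, with 18.1 and 17.3 CPM in untreated WT pools, 16.4 in both UTP-treated WT pools, 14.0 and 15.5 in untreated P2Y2 KO pools, and 13.7 and 15.0 in UTP-treated P2Y2 KO pools. The P2Y2 KO pools were lower without overlap, but the difference did not pass the test (adjusted p = 0.0925 untreated and 0.238 with UTP, edgeR), and the sources used here do not say which part of the gene was deleted. The pools also differed in sex. Untreated WT pool 1 had no read of the 4 Y-linked genes used and 452 CPM of Xist, against 241 to 249 CPM in the other WT pools, and pool 1 of each P2Y2 KO group had at most 0.150 CPM of Xist against 215 and 221 CPM in pool 2. Untreated WT pool 1 further stood apart in 6 epithelial markers, which summed to 11.2 CPM there, to 107 to 138 CPM in the other WT pools and to 10.7 to 13.8 CPM in P2Y2 KO pools. The 12 mesenchymal markers summed to 12327 to 17124 CPM, with the collagen genes Col1a1, Col1a2 and Col3a1 as the largest parts. In untreated WT pools these averaged 3454, 3786 and 3594 CPM. The surface markers Thy1, Eng and Cd44 averaged 137, 152 and 294 CPM there. Mesothelial markers (1068 to 1721 CPM over 6 genes) and muscle markers (2457 to 4482 CPM over 7 genes) were read too, whereas 8 endothelial genes summed to at most 114 CPM, 6 dendritic cell genes to at most 14.9 CPM and 7 lymphocyte genes to at most 9.90 CPM.

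Macrophage markers were clearly present in these cultures. All 16 listed markers, among them Csf1r, Adgre1, Cd68 and C1qa, were read and tested, and none was at 0. They summed to 3397 and 2480 CPM in untreated WT pools, to 1584 and 1523 CPM in UTP-treated WT pools, to 4623 and 4033 CPM in untreated P2Y2 KO pools, and to 3223 and 3399 CPM in UTP-treated P2Y2 KO pools. The sum was thus lower with UTP in both genotypes and higher in P2Y2 KO than in WT at either condition, without overlap. In RNA from whole cultures, fewer cells of a type and less RNA per cell cannot be told apart.

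In WT cADSC, 2 of the 10 members passed the test after UTP, both lower, where 1.22% of all genes tested passed and 1.08% passed as lower. These 2 were Trem2 and Plin2. In P2Y2 KO cADSC no member passed, where 0.0342% of all genes did. In P2Y2 KO, 5 members had an unadjusted p under 0.05, against 7.56% of all genes, and DESeq2 called 3, Trem2, Spp1 and Cd9. The difference between both UTP effects passed for no member and for 0.0% of genes (3 members and 922 genes had an unadjusted p under 0.05, and DESeq2 called 0 members), so that no member was shown to respond differently in the 2 genotypes. Averaged over both genotypes, 3 members passed, 2 lower and 1 higher, against 2.55% of all genes (2.12% lower and 0.428% higher). Over the 10 members the median log2 fold change with UTP was -0.05 in WT and -0.01 in P2Y2 KO, close to the 0.01 and 0.00 of all genes tested. By the order of the pools alone, 2 members were higher and 5 lower with UTP without overlap in WT (26.2% and 25.8% of all genes), and 3 were higher and 4 lower in P2Y2 KO (16.7% and 21.1%).

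**Figure D1:**
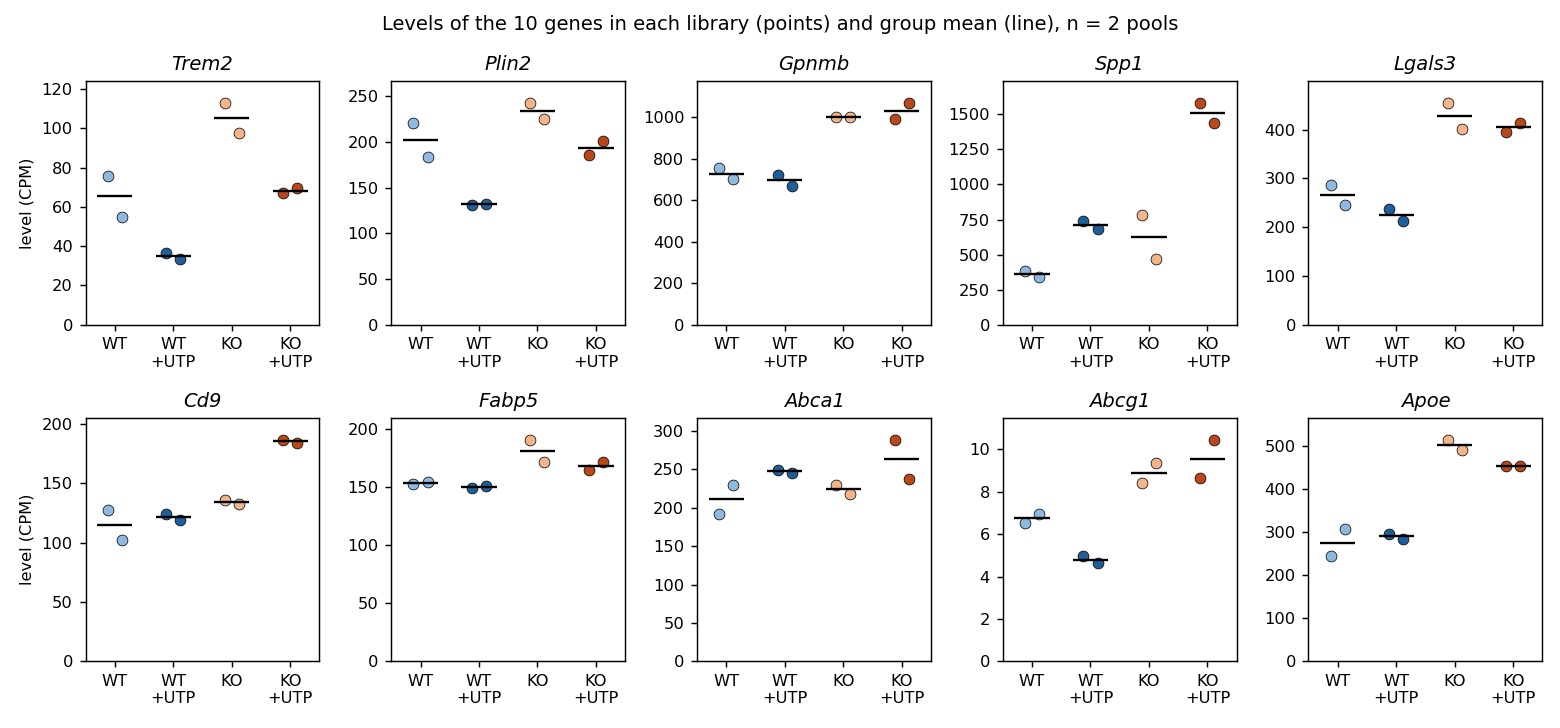
Level of each of the 10 genes in CPM (vertical axis, from 0) in the 8 libraries, grouped as WT and P2Y2 KO (KO), untreated or with UTP. Points are pools and lines are means of n = 2 pools. Trem2 and Plin2 are lowest in UTP-treated WT pools, and Spp1 is highest in UTP-treated P2Y2 KO pools.

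Trem2, the lipid-sensing receptor of macrophages (ENSMUSG00000023992, chromosome 17, 48346401 to 48354147, plus strand, GRCm38), fell with UTP. It stood at 76.0 and 55.1 CPM in untreated WT pools and at 36.7 and 33.6 CPM in UTP-treated WT pools. In P2Y2 KO cADSC it stood at 113 and 97.5 CPM untreated and at 66.9 and 69.5 CPM with UTP. Pools with and without UTP did not overlap in either genotype, and the UTP-treated P2Y2 KO pools lay between both untreated WT pools. The log2 fold change was -0.90 ± 0.15 (SE) in WT (1.86-fold lower, adjusted p = 0.0356, edgeR) and -0.62 ± 0.14 in P2Y2 KO (adjusted p = 0.375, and 0.0184 or 0.0187 without untreated WT pool 2 or 1). The difference between both effects was 0.28 on the log2 scale, with a 95% interval of -0.18 to 0.74. Averaged over genotypes Trem2 changed by -0.76 ± 0.10 (adjusted p = 0.0125). The WT call was lost without either UTP-treated WT pool or any of the 4 P2Y2 KO pools (adjusted p = 0.0606 to 0.354), and with Y-linked expression as a covariate (log2 fold change -0.62, adjusted p = 0.0785). The averaged call was lost without either UTP-treated WT pool or without pool 1 of either P2Y2 KO group (0.0595 to 0.108).

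Trem2 kept close to the summed macrophage markers from library to library. Its level was 2.24% and 2.22% of the summed CPM of the 16 markers in untreated WT pools, 2.32% and 2.21% with UTP, 2.44% and 2.42% in untreated P2Y2 KO pools, and 2.08% and 2.05% in UTP-treated P2Y2 KO pools. The highest and the lowest of these shares differed 1.19-fold, whereas the CPM of Trem2 itself ran from 33.6 to 113 across the same libraries. Lyz2 was the largest part of the sum, so that the share follows it most and single markers less. In WT, Lyz2 went from 1219 and 992 CPM untreated to 818 and 813.5 CPM with UTP. Csf1r went from 520 and 325 CPM to 166 and 149 CPM. Of the 16 markers, 11 passed as lower with UTP in WT (median log2 fold change -1.41) and 0 in P2Y2 KO (-0.63, with 10 at an unadjusted p under 0.05). Trem2 itself changed by -0.90 in WT, less than this median, and by -0.62 in P2Y2 KO. The part of the macrophage content of the cultures in the values of Trem2 was not tested.

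Of 7 genes listed for the adaptors, the signalling and the shedding of TREM2, 3 passed as lower with UTP in WT and none as higher. All 7 had a log2 fold change below 0 there, with a median of -0.81. In P2Y2 KO none of the 7 passed (3 at an unadjusted p under 0.05) and the median was -0.33. Tyrobp, the adaptor that carries the signal of TREM2, stood at 120 and 86.5 CPM in untreated WT pools and at 62.2 and 55.9 CPM with UTP (log2 fold change -0.81 ± 0.14, adjusted p = 0.0411). Inpp5d, a lipid phosphatase that damps the signal, showed the widest change of the list in WT, from 79.8 and 48.8 CPM to 20.6 and 19.9 CPM (-1.67 ± 0.22, adjusted p = 0.0267). Plcg2, a phospholipase downstream of the receptor, went from 49.3 and 31.9 CPM to 19.8 and 17.6 CPM (-1.12 ± 0.19, adjusted p = 0.0420). All 3 were also lower without overlap in P2Y2 KO, with log2 fold changes of -0.33 for Tyrobp, -0.81 for Inpp5d and -0.63 for Plcg2. In WT each of the 3 calls was lost without either UTP-treated WT pool and without untreated P2Y2 KO pool 1, and those of Tyrobp and Plcg2 also without any other P2Y2 KO pool (0.0511 to 0.365). With the Y-linked covariate those of Tyrobp (0.0639) and Plcg2 (0.0783) were lost too. In P2Y2 KO, Inpp5d and Plcg2 passed without either untreated WT pool and Tyrobp without untreated WT pool 2 (0.0263 to 0.0483), and Plcg2 passed with the Y-linked covariate (0.0331).

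Plin2, the coat protein of lipid droplets (ENSMUSG00000028494, chromosome 4, 86648386 to 86670060, minus strand), fell with UTP too. It stood at 221 and 183 CPM in untreated WT pools against 131 and 132 CPM with UTP, and at 242 and 225 CPM in untreated P2Y2 KO pools against 185 and 201 CPM with UTP. The UTP-treated pools were lower in both genotypes, and those of WT were the lowest of all. The log2 fold change was -0.61 ± 0.10 in WT (1.53-fold lower, adjusted p = 0.0321, edgeR) and -0.27 ± 0.10 in P2Y2 KO (adjusted p = 0.541). The difference between both effects was 0.35 (95% interval 0.04 to 0.66, adjusted p = 0.837, edgeR). Averaged over genotypes the change was -0.44 ± 0.07 (adjusted p = 0.0181). As for Trem2, the WT call was lost without either UTP-treated WT pool or any P2Y2 KO pool (0.0513 to 0.337) and with the Y-linked covariate (0.0718), and the averaged call without either UTP-treated WT pool or pool 1 of either P2Y2 KO group (0.0813 to 0.122).

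Other genes of lipid droplets did not pass with UTP. Of 17 listed genes for droplet coats and triglyceride turnover, 14 were tested, with none past the threshold in WT (3 at an unadjusted p under 0.05), in P2Y2 KO (0) or on average. Of these, the 2 most abundant were Plin3, a coat protein of small droplets, at 73.3 and 81.0 CPM in untreated WT and 87.1 and 84.3 CPM with UTP, and Abhd5, the activator of the triglyceride lipase, at 58.0 and 50.4 CPM against 47.2 and 46.0 CPM. Both passed in WT without untreated WT pool 2, Plin3 as higher (0.0418) and Abhd5 as lower (0.0388). Adipocytes make Plin2 as well, so their markers are given beside it. The 8 adipocyte genes listed, including Adipoq, Plin1 and Cidec, summed to 85.2 and 83.1 CPM in untreated WT pools, 52.3 and 47.9 CPM with UTP, 135 and 347 CPM in untreated P2Y2 KO pools, and 104 and 266 CPM with UTP. None of the 7 tested passed with UTP in either genotype. The untested one, the leptin gene Lep, was at 0 in all 4 WT pools and in 2 of 4 P2Y2 KO pools. The part of adipocytes in the values of Plin2 was not tested.

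Spp1 encodes osteopontin, a secreted glycoprotein that binds integrins and CD44, and it went the other way (ENSMUSG00000029304, chromosome 5, 104435118 to 104441050, plus strand). Its level was 384 and 339 CPM in untreated WT pools and 737 and 679.6 CPM with UTP. In P2Y2 KO cADSC it was 786 and 470.2 CPM untreated and 1580 and 1435 CPM with UTP. UTP-treated pools were higher in each genotype without overlap, and the untreated P2Y2 KO pools spanned both UTP-treated WT pools. These untreated P2Y2 KO pools differed 1.67-fold from each other, a wider gap than in 94.9% of genes tested. The log2 fold change was 0.97 ± 0.20 in WT (1.96-fold, adjusted p = 0.0583, edgeR) and 1.27 ± 0.20 in P2Y2 KO (2.41-fold, adjusted p = 0.135), neither past the threshold. With DESeq2 both passed (adjusted p = 0.0107 in WT and 9.77e-04 in P2Y2 KO), as they did with no minimum level, and the WT value also passed with a block for the pool number (0.0259, edgeR). The WT value further passed without either untreated P2Y2 KO pool (0.0177 and 0.0183), and that of P2Y2 KO passed without either untreated WT pool or without untreated P2Y2 KO pool 1 (0.00911 to 0.0361) or with the Y-linked covariate (0.0359), the last at a log2 fold change of 1.67. The difference between both effects was 0.30, with a 95% interval of -0.33 to 0.93. Averaged over genotypes Spp1 rose by 1.12 ± 0.14 (2.18-fold, adjusted p = 0.0117), the widest change among the 10 members. That call was lost without either UTP-treated WT pool or without UTP-treated P2Y2 KO pool 1 (0.0520 to 0.0898).

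Spp1 did not follow the macrophage markers. Relative to their sum it was 11.3% and 13.7% in untreated WT pools, 46.5% and 44.6% with UTP, 17.0% and 11.7% in untreated P2Y2 KO pools, and 49.0% and 42.2% with UTP. The 4 UTP-treated pools thus lay above the 4 untreated ones, and at either condition the pools of both genotypes overlapped in this ratio. Gm42793 overlaps Spp1 on the same strand, and how reads over both genes were assigned is not given in the sources used here. Its own reads moved alike, from 42.1 and 37.4 CPM to 81.6 and 78.4 CPM in WT and from 97.2 and 59.4 CPM to 186 and 167 CPM in P2Y2 KO (averaged log2 fold change 1.10 ± 0.13, adjusted p = 0.0109). Of 11 listed osteopontin receptors and CD9 partners none passed with UTP in WT (4 at an unadjusted p under 0.05) or in P2Y2 KO (1). On average only Itga4, an integrin subunit of leukocytes that binds osteopontin, passed. It was at 39.1 and 24.0 CPM in untreated WT pools and 15.5 and 14.2 CPM with UTP, and at 45.5 and 43.7 against 30.4 and 34.3 CPM in P2Y2 KO (averaged log2 fold change -0.77 ± 0.14, adjusted p = 0.0314). Its averaged call was lost without either UTP-treated WT pool or any P2Y2 KO pool (0.0645 to 0.171), and its WT value passed without either untreated WT pool (0.000229 and 0.0403).

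**Figure D2:**
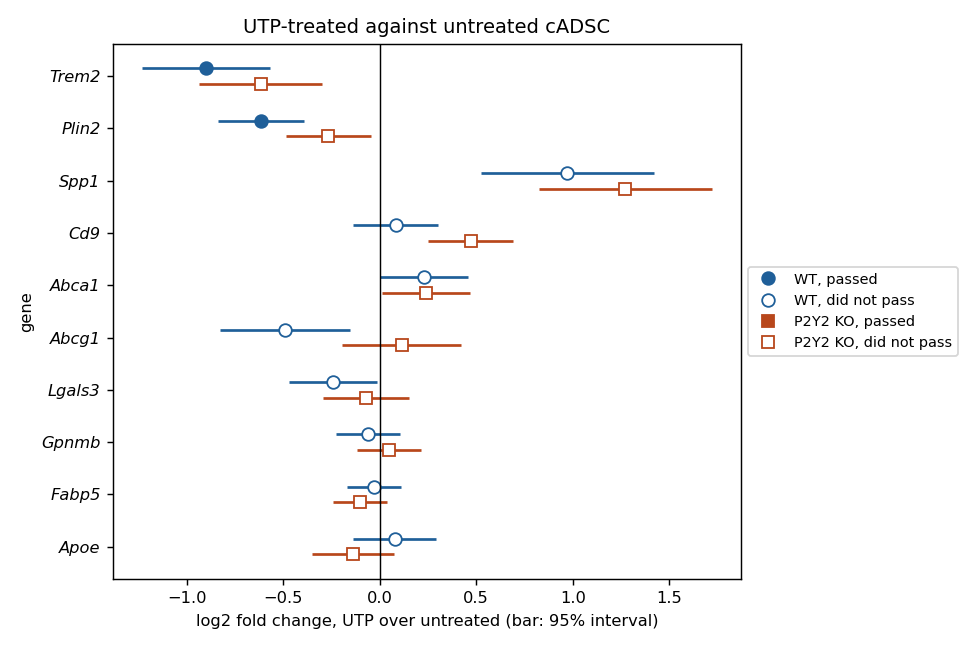
Log2 fold change of each of the 10 genes with UTP over untreated (horizontal axis) in WT (circles) and P2Y2 KO (squares) cADSC, with 95% intervals as bars and filled symbols for an edgeR adjusted p under 0.05. Only Trem2 and Plin2 in WT are filled, and Spp1 lies at 0.97 and 1.27 with open symbols.

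Gpnmb, Lgals3, Cd9 and Fabp5 are surface, secreted and lipid-binding products of the same programme, and none of them passed with UTP. Gpnmb, a transmembrane glycoprotein of lysosome-rich macrophages (ENSMUSG00000029816), was at 753 and 699.5 CPM in untreated WT pools, 723 and 668 CPM with UTP, 1000.4 and 999.8 CPM in untreated P2Y2 KO pools, and 989.6 and 1066 CPM with UTP. Treated and untreated pools overlapped in both genotypes, with 95% intervals of the log2 fold change of -0.23 to 0.11 in WT and -0.12 to 0.21 in P2Y2 KO. Lgals3 encodes galectin-3, the lectin also known as Mac-2 (ENSMUSG00000050335). It was at 287 and 245 CPM untreated and 238 and 212 CPM with UTP in WT, and at 454 and 400.4 CPM against 395 and 414 CPM in P2Y2 KO. Its UTP-treated WT pools were lower without overlap, at a log2 fold change of -0.24 ± 0.10 (adjusted p = 0.259), which passed without untreated WT pool 2 (-0.37, adjusted p = 0.0383).

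Cd9, a tetraspanin that organises integrins at the membrane (ENSMUSG00000030342), was at 127 and 102 CPM in untreated WT pools and 124 and 119 CPM with UTP, and at 136 and 133 CPM in untreated P2Y2 KO pools against 187 and 184 CPM with UTP. Its pools overlapped in WT (log2 fold change 0.08 ± 0.10) and were higher with UTP without overlap in P2Y2 KO (0.47 ± 0.10, adjusted p = 0.284). The P2Y2 KO value passed without either untreated WT pool (0.0124 and 0.0126), and the average of 0.28 ± 0.07 (adjusted p = 0.0794) passed without the same pools (0.00339 and 0.0161). The difference of 0.39 had a 95% interval of 0.08 to 0.70 (adjusted p = 0.837, edgeR). Without untreated WT pool 2 that difference passed (adjusted p = 0.0195), and in that setting the WT effect turned to -0.08. Gm26728, which overlaps Cd9 on the opposite strand, had 36.3 and 36.0 CPM in untreated and 50.7 and 48.6 CPM in UTP-treated P2Y2 KO pools. The strand setting of the counting is not given in the sources used here. Fabp5, a carrier of fatty acids in the cytosol (ENSMUSG00000027533), varied little, at 153 and 154 CPM untreated against 149 and 151 CPM with UTP in WT and at 191 and 172 CPM against 164 and 171 CPM in P2Y2 KO. Its 95% interval with UTP was -0.17 to 0.11 on the log2 scale in WT and -0.24 to 0.04 in P2Y2 KO. Of 12 other genes of fatty acid binding and PPAR targets none passed with UTP in WT (3 at an unadjusted p under 0.05) or P2Y2 KO (0). The 2 most abundant of them were Fabp4, the fatty acid carrier of adipocytes and macrophages, at 89.2 and 96.9 CPM against 79.0 and 79.3 CPM in WT, and Cpt1a, which passes fatty acids to the mitochondria, at 111 and 117 CPM against 112 and 107 CPM.

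The genes of cholesterol export showed no call with UTP. Abca1, which loads cholesterol onto apolipoprotein A-I (ENSMUSG00000015243), was at 192 and 229.9 CPM in untreated WT pools and 249 and 245 CPM with UTP, and at 230.1 and 218 CPM against 288 and 238 CPM in P2Y2 KO. Its UTP-treated pools were higher without overlap in both genotypes, at log2 fold changes of 0.23 ± 0.10 and 0.24 ± 0.10, and the average of 0.23 ± 0.07 did not pass (adjusted p = 0.134), but did without untreated WT pool 2 (0.0264). Abcg1, which exports cholesterol to mature high density lipoprotein (ENSMUSG00000024030), was the scarcest member, with 6.55 and 6.95 CPM in untreated WT pools, 4.95 and 4.65 CPM with UTP, 8.39 and 9.35 CPM in untreated P2Y2 KO pools, and 8.65 and 10.4 CPM with UTP. These levels rest on 93 to 209 deposited counts. In WT its UTP-treated pools were lower at a log2 fold change of -0.49 ± 0.15 (adjusted p = 0.156), whereas in P2Y2 KO the pools overlapped (0.11 ± 0.13). The difference of 0.60 was the widest of the 10 members (95% interval 0.15 to 1.06, adjusted p = 0.837, edgeR). Apoe, the apolipoprotein that macrophages secrete with cholesterol (ENSMUSG00000002985), was at 244 and 308 CPM untreated and 296 and 285 CPM with UTP in WT, and at 514 and 491 CPM against 455 and 455 CPM in P2Y2 KO. The P2Y2 KO pools were lower with UTP without overlap, at a log2 fold change of -0.14 ± 0.09 (adjusted p = 0.841). The WT pools overlapped, at 0.08 ± 0.09, which became 0.24 without untreated WT pool 2 (adjusted p = 0.0422) and -0.07 without untreated WT pool 1.

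Other LXR and cholesterol genes were mostly without a call. Of 17 listed, 1 passed as lower with UTP in WT and none as higher, at a median log2 fold change of 0.01, and none passed in P2Y2 KO (3 at an unadjusted p under 0.05, median -0.07). The WT call was that of Nceh1, a cholesteryl ester hydrolase of macrophages, at 91.9 and 73.3 CPM untreated and 53.3 and 50.9 CPM with UTP (-0.67 ± 0.12, adjusted p = 0.0440). In P2Y2 KO, Nceh1 was also lower without overlap, at a log2 fold change of -0.44. Its WT call was lost on leaving out any library other than untreated WT pool 2 (0.0698 to 0.373) and with the Y-linked covariate (0.174). Npc1, which moves cholesterol out of lysosomes, passed as lower on average, with 106 and 84.8 CPM against 74.2 and 69.3 CPM in WT and 107 and 104 CPM against 84.6 and 87.6 CPM in P2Y2 KO (-0.35 ± 0.07, adjusted p = 0.0471). Its call was lost on leaving out any UTP-treated WT or P2Y2 KO pool (0.0968 to 0.218), and its WT value passed without untreated WT pool 2 (0.00139).

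Several receptors for lipoproteins and modified lipids were much lower with UTP in WT. Of 12 listed, 3 passed as lower with UTP in WT and none in P2Y2 KO, and on average 3 passed as lower and 1 as higher. The study names Msr1 and Stab1 among its UTP-regulated genes in these libraries, so that the WT count is not independent evidence. In WT, 9 of the 12 were below 0 (median log2 fold change -0.23). In P2Y2 KO, 7 were above 0 and 5 below (median 0.06), and 7 had an unadjusted p under 0.05 (edgeR). For the difference between both UTP effects 5 had one (5.26% of all genes), and none passed. Marco, named after its values were seen, stood in P2Y2 KO at 32.6 and 18.8 CPM untreated and 62.2 and 70.5 CPM with UTP. In WT it stood at 11.9 and 8.60 CPM against 7.55 and 8.10 CPM. Stab1, a scavenger receptor of resident macrophages, fell from 317 and 186 CPM to 53.9 and 49.2 CPM in WT (-2.29 ± 0.33, adjusted p = 0.0283). Msr1, the scavenger receptor A of foam cells, fell from 251 and 178 CPM to 85.4 and 74.5 CPM (-1.42 ± 0.16, adjusted p = 0.0233). Cd68, an endosomal glycoprotein counted among the macrophage markers too, fell from 195 and 136 CPM to 82.2 and 79.8 CPM (-1.03 ± 0.15, adjusted p = 0.0288). Stab1, Msr1 and Cd68 were also lower without overlap in P2Y2 KO, at log2 fold changes of -1.19, -0.62 and -0.57. Olr1, the receptor LOX-1 for oxidised lipoprotein, was the 1 that rose on average, from 7.25 and 11.3 to 15.7 and 14.7 CPM in WT and from 7.99 and 9.40 to 17.3 and 12.4 CPM in P2Y2 KO (0.75 ± 0.15, adjusted p = 0.0449). The calls of Stab1, Msr1 and Cd68 in WT were lost without either UTP-treated WT pool or untreated P2Y2 KO pool 1, and that of Cd68 also without untreated P2Y2 KO pool 2 (0.0511 to 0.337). That of Stab1 was lost with the Y-linked covariate as well (-1.90, adjusted p = 0.0846). The averaged call of Olr1 was lost on leaving out any library other than untreated WT pool 2 and UTP-treated P2Y2 KO pool 2 (0.0593 to 0.176), with the Y-linked covariate (0.0570), with library size in place of TMM (0.0508) and with a block for the pool number (0.0631), and its WT value passed without untreated WT pool 2 (0.0172). In P2Y2 KO, Msr1 and Cd68 passed without either untreated WT pool (0.0207 to 0.0276).

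Further genes of lipid-associated macrophages split in direction. Of 20 listed, 2 passed as higher and 2 as lower with UTP in WT, and 1 passed as higher in P2Y2 KO. The lower ones were Tyrobp and Nceh1, which belong to the lists above as well. Atp6v0d2, a subunit of the lysosomal proton pump of macrophages and osteoclasts, rose from 19.8 and 20.0 CPM to 39.9 and 35.5 CPM in WT and from 25.3 and 21.3 CPM to 45.7 and 42.3 CPM in P2Y2 KO. Its log2 fold change was 0.92 ± 0.10 in WT (adjusted p = 0.0164) and 0.92 ± 0.09 in P2Y2 KO (adjusted p = 0.0238), and the average kept its call without any 1 library. Itgax, the integrin CD11c, rose from 40.3 and 35.0 CPM to 61.2 and 55.1 CPM in WT (0.63 ± 0.09, adjusted p = 0.0283) and stood at 51.2 and 46.0 CPM against 80.9 and 78.2 CPM in P2Y2 KO (0.72 ± 0.09, adjusted p = 0.0677). Its averaged call (0.67 ± 0.06, adjusted p = 0.00460) held without any 1 library too. The call of Atp6v0d2 in WT was lost without either UTP-treated WT pool (up to 0.184) and in P2Y2 KO without any library other than the untreated WT pools and UTP-treated P2Y2 KO pool 2 (up to 0.262). That of Itgax in WT was lost without either UTP-treated WT pool, untreated P2Y2 KO pool 1 or UTP-treated P2Y2 KO pool 2 (0.0511 to 0.311), and its P2Y2 KO value passed without either untreated WT pool (0.0124 and 0.0126), with DESeq2 (3.43e-06), with the Y-linked covariate (0.00979) and with a block for the pool number (0.0255). Osteoclast genes are given beside them. Of 6, 4 were tested and 1 passed in WT, the acid phosphatase gene Acp5 (1.17 ± 0.20, adjusted p = 0.0389), named after its value was seen. Acp5 stood at 6.35 and 10.3 CPM in untreated WT pools and at 18.9 and 18.6 CPM with UTP. In P2Y2 KO it stood at 17.5 and 18.6 CPM untreated and at 24.7 and 19.7 CPM with UTP. Another of the 6, Ctsk, was at 62.4 and 59.2 CPM in untreated WT pools and 59.8 and 52.6 CPM with UTP. It was their largest part, so that their sum follows it most. The 6 genes summed to 69.9 and 70.5 CPM in untreated WT pools, 81.3 and 72.2 CPM with UTP, 69.8 and 78.8 CPM in untreated P2Y2 KO pools, and 78.2 and 81.4 CPM with UTP, so that the untreated P2Y2 KO pools overlapped the UTP-treated ones.

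P2Y2 KO cADSC had more of most members than WT cADSC. Untreated, all 10 had a log2 fold change above 0, 6 passed as higher, where 10.5% of all genes passed as higher, 10.2% as lower and 20.7% in either direction, and 9 of 10 were higher in both P2Y2 KO pools than in both WT pools, against 31.8% of all genes higher and 30.1% lower in this sense. The median over the members was 0.43, against 0.02 for all genes. Apoe had the widest change, 0.86 ± 0.09 (1.82-fold, adjusted p = 0.00204, edgeR), followed by Spp1 (0.79 ± 0.20, adjusted p = 0.0259), Lgals3 (0.68 ± 0.10, 0.00504) and Trem2 (0.68 ± 0.14, 0.0141). Gpnmb (0.46 ± 0.07, 0.00651) and Fabp5 (0.24 ± 0.06, 0.0308) passed too. Apoe, Lgals3 and Gpnmb kept their calls without any 1 library. That of Trem2 was lost without untreated P2Y2 KO pool 1 (0.0963), that of Spp1 without untreated WT pool 2, either UTP-treated WT pool or untreated P2Y2 KO pool 1 (0.0525 to 0.0816), the last at a log2 fold change of 0.39, and that of Fabp5 without any WT pool or untreated P2Y2 KO pool 1 (0.0559 to 0.162). With the Y-linked covariate Spp1 (0.0972) and Fabp5 (0.108) lost their calls, and with DESeq2 Fabp5 did (0.0623). Plin2 (0.21), Cd9 (0.23), Abcg1 (0.39) and Abca1 (0.08) did not pass, but Plin2 and Cd9 did without untreated WT pool 1, at 0.37 and 0.41 (adjusted p = 0.0186 and 0.00578).

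With UTP in both genotypes, 8 members passed as higher in P2Y2 KO, where 9.52% of all genes passed as higher, 7.9% as lower and 17.4% in either direction, and 9 of 10 were higher without overlap, against 31.7% of all genes higher and 33.5% lower. The log2 fold change was 1.09 ± 0.20 for Spp1, 1.00 ± 0.14 for Abcg1, 0.96 ± 0.15 for Trem2, 0.85 ± 0.10 for Lgals3, 0.65 ± 0.09 for Apoe, 0.61 ± 0.10 for Cd9, 0.57 ± 0.07 for Gpnmb and 0.56 ± 0.10 for Plin2, with adjusted p from 0.00235 to 0.00834 (edgeR). Fabp5 (0.16, adjusted p = 0.104) and Abca1 (0.09, 0.568) did not pass. Only Abca1 overlapped between genotypes in each condition. Gpnmb, Lgals3 and Abcg1 kept their calls without any 1 library. Without UTP-treated WT pool 2, Trem2, Plin2, Spp1, Cd9 and Apoe lost theirs (0.0512 to 0.0820), and Plin2 and Spp1 also without UTP-treated WT pool 1. These genotype values share their pools with the UTP comparisons and are not independent of them.

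**Figure D3:**
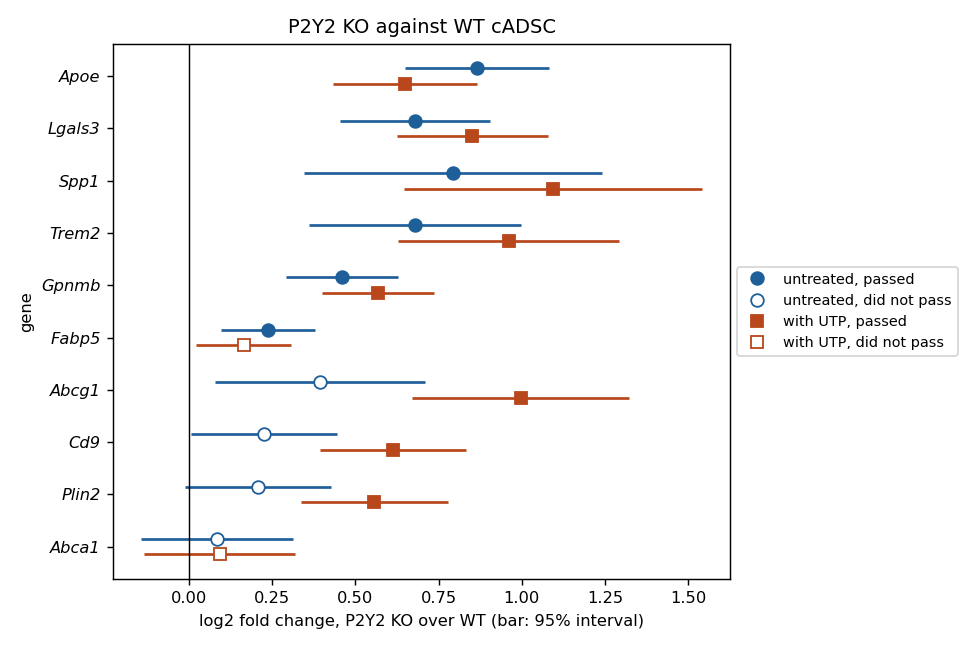
Log2 fold change of each of the 10 genes in P2Y2 KO over WT cADSC (horizontal axis), untreated (circles) and with UTP (squares), with 95% intervals as bars and filled symbols for an edgeR adjusted p under 0.05. All 20 points lie above 0, and 14 are filled.

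Marker genes of some other cells moved with genotype as well. The counts below stand against 10.5% of all genes that passed as higher in untreated P2Y2 KO pools and 9.52% with UTP. As lower, 10.2% and 7.9% of all genes passed. Several lists of few genes lie near these shares, and such counts are not a result about the list. Of the 16 macrophage markers, 5 passed as higher in untreated P2Y2 KO pools (median 0.45) and 14 with UTP (median 1.21). Of the 7 adipocyte markers tested, 3 and 4 passed as higher, while all 6 epithelial markers were below 0 in both comparisons and 4 and 6 passed as lower. Of 4 lymphocyte markers tested, 2 and 3 passed as higher (medians 2.00 and 2.53), of 8 endothelial markers 4 and 2 higher and 1 and 1 lower, of 12 mesenchymal markers 5 and 4 higher and 1 and 0 lower, of 6 mesothelial markers 2 and 0 higher, and of 4 osteoclast markers 1 and 0 higher. Of the tested muscle and dendritic cell markers none passed. Their part in the values of the 10 members was not tested. Of the listed pathway genes, 7 and 11 of 20 further lipid-associated macrophage genes passed as higher in P2Y2 KO, untreated and with UTP. So did 8 and 7 of 17 LXR and cholesterol genes, 5 and 5 of 14 droplet genes, and 4 and 5 of 12 uptake receptors. In the same order, 2 and 2 of 12 fatty acid genes and 2 and 2 of 11 osteopontin receptors and CD9 partners did. For the list of TREM2 adaptors, signalling and shedding it was 1 and 5 of 7. Those that passed as lower untreated were 1 gene of the TREM2 list, 1 uptake receptor, 1 fatty acid gene and 2 osteopontin receptors or CD9 partners. With UTP, 1 LXR or cholesterol gene did. Among those named above, Tyrobp, Inpp5d, Plcg2, Msr1, Cd68, Nceh1, Itga4 and Abhd5 passed as higher with UTP but not untreated, Plin3 untreated but not with UTP, Itgax and Fabp4 passed in both, and Atp6v0d2, Npc1, Stab1, Olr1 and Cpt1a in neither.

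The members differed in how they stood to the macrophage markers across the 8 libraries. Lgals3 was 8.45% to 9.93% of their sum in the 4 untreated pools, 15.0% and 13.9% in UTP-treated WT pools and 12.3% and 12.2% in UTP-treated P2Y2 KO pools. Gpnmb was 21.6% to 28.2% untreated, 45.6% and 43.9% in UTP-treated WT pools and 30.7% and 31.4% in UTP-treated P2Y2 KO pools. Both genes stood higher relative to the markers in every UTP-treated pool, and neither passed the test for its own level. The marker sum was lower with UTP in both genotypes, so that any gene of unchanged level rises in this share. P2ry2, for example, went from 0.532% and 0.699% of the sum to 1.035% and 1.076% in WT. Plin2, whose CPM was lower with UTP, was 6.49% and 7.38% of the marker sum in untreated WT pools, 8.29% and 8.68% with UTP, 5.24% and 5.58% in untreated P2Y2 KO pools, and 5.75% and 5.92% with UTP, so that its share was higher with UTP in both genotypes. The ratio of highest to lowest share over the 8 libraries was 1.19 for Trem2, 1.66 for Plin2, 1.72 for Abcg1, 1.78 for Lgals3, 2.11 for Gpnmb, 2.41 for Fabp5, 2.61 for Apoe, 2.66 for Cd9, 3.24 for Abca1 and 4.34 for Spp1. These ratios are descriptions with no test, since both parts come from the same library.

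**Figure D4:**
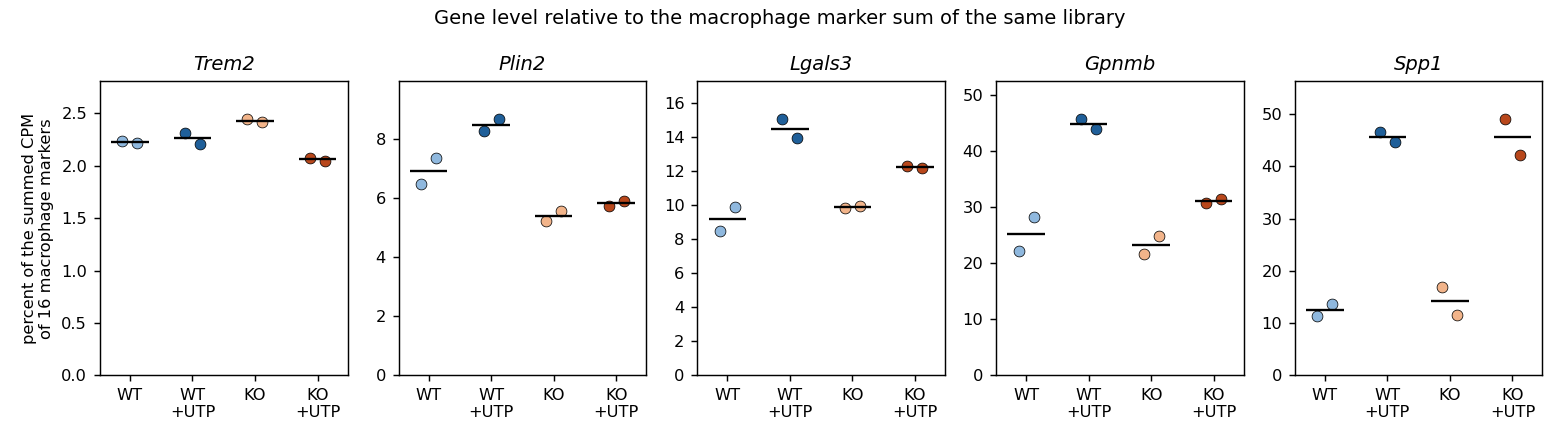
Level of Trem2, Plin2, Lgals3, Gpnmb and Spp1 as a percent of the summed CPM of 16 macrophage markers in the same library (vertical axis, from 0), by group. Points are pools and lines are means of n = 2 pools. Trem2 stays between 2.05% and 2.44%, and Spp1 is 11.3% to 17.0% untreated and 42.2% to 49.0% with UTP.

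Levels between genes were compared per length, as CPM per kb of annotated exon. In untreated WT cADSC, Spp1 was highest at 219 ± 19.4 (SD, n = 2 pools), followed by Lgals3 at 143 ± 16.1, Apoe at 129 ± 21.4 and Gpnmb at 111 ± 5.76, of which Lgals3 and Apoe, and Apoe and Gpnmb, overlapped between pools. Plin2 (57.5 ± 7.60), Cd9 (56.1 ± 8.71) and Fabp5 (43.0 ± 0.347) came next, then Abca1 (20.4 ± 2.57), Trem2 (13.3 ± 2.99) and Abcg1 (0.924 ± 0.0387), and here Plin2 and Cd9 overlapped. By this scale Spp1 ranked 143 of 17493 genes in untreated WT, 56 with UTP, 68 in untreated P2Y2 KO and 19 in UTP-treated P2Y2 KO cADSC. Trem2 ranked 4364, 7022, 2764 and 4210 in the same order. The 10 members together took 0.244% and 0.232% of reads in untreated WT pools, 0.269% and 0.253% with UTP, 0.368% and 0.322% in untreated P2Y2 KO pools, and 0.432% and 0.424% with UTP, so that their sum was highest in the UTP-treated P2Y2 KO pools.

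The study's methods name a minimum CPM and a fold change. A rule of that kind was applied here as a ratio of mean CPM over 2 or under 0.5, with a mean over 0.5 CPM in at least 1 condition. How the study averaged pools and applied its minimum is not stated. Its gene set differs from the one here, since in WT it reports more genes in each direction than the 169 above 2 and 355 below 0.5 found here. By this reading none of the 10 members passed in WT, where 0.993% of 17013 genes were above 2 and 2.09% below 0.5. Spp1 had a ratio of 1.96 and Trem2 of 0.536. In P2Y2 KO only Spp1 passed the rule, at 2.40, where 0.88% of 17263 genes were above 2 and 0.481% below 0.5. The rule has no replicate check. Leaving out 1 WT pool put Spp1 between 1.84 and 2.09 and Trem2 between 0.463 and 0.638 in WT, so that either could pass or not, and leaving out untreated P2Y2 KO pool 2 put Spp1 at 1.92 in P2Y2 KO.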

How the data were processed

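RNA from cADSC cultures was sequenced by the authors as stranded, paired reads of 100 bases. Per the labels, reads were trimmed with Trimmomatic, aligned with STAR to GRCm38.p4 and counted per gene with HTSeq. The strand setting of the counting is not given in the sources used here. The deposited values are estimated counts. Each library is a whole-number table in which the total had been brought to 20008555 to 20015454, and gaps in the low values gave scaling factors of 0.9084 to 1.07523, so that 18600408 to 22016535 reads lay behind them. This scaling step is not described in the sources used here, and it leaves counting error close to that of raw counts. The columns of averages and ratios that the authors computed were not used.

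The counts were fitted with edgeR 4.0.16 (quasi-likelihood, TMM normalization) in R 4.3.3 over all 8 libraries and 4 groups, with 4 residual degrees of freedom, for 17529 genes above 0.5 CPM in at least 2 libraries. CPM are the counts divided by the library total. Intervals are 95% intervals of the fit. Gene positions and exon lengths came from GENCODE M21, which held 52489 of the 52636 identifiers. The scripts were tested on simulated data. The alternatives tried were plain library totals instead of TMM, DESeq2 1.42.0, no minimum or 2 CPM, the counts with the scaling undone, a block for the pool number, Y-linked expression as a covariate, the libraries of 1 genotype alone and leaving out each library. The 10 genes and all lists were chosen with earlier results of these data known. All 10 genes are named, and of each further list up to 4 that passed with UTP in a genotype or on average, in the order of the averaged p, or else the 2 most abundant.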

Additional observations from a re-analysis of the deposited data

How the results depend on the processing

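Counts of calls depended on the setting. For UTP in WT, 214 genes passed in the reported fit, 568 with DESeq2, 1083 with no minimum level, 75 with the Y-linked covariate and 2 from WT libraries alone; the 2 of 10 members became 0 under the last pair of settings. For UTP in P2Y2 KO, 6 genes became 107, 319, 166 and 3 under the same 4 settings, and the 0 members became 3 (Trem2, Spp1 and Cd9) with DESeq2, no minimum or the covariate. For the difference between both UTP effects, 0 genes became 6 with DESeq2 and 28 with no minimum. For P2Y2 KO against WT untreated, 3628 genes became 2175 with DESeq2 and 2117 with the covariate. For the averaged UTP effect, 447 genes became 685 with DESeq2 and 1213 with no minimum, and 3 members became 4 and 5. On leaving out 1 library, the genes called ran from 1 to 2403 (UTP in WT), 2 to 156 (UTP in P2Y2 KO), 0 to 275 (difference), 720 to 3984 (genotype, untreated), 640 to 4095 (genotype, with UTP) and 11 to 2206 (average), and the members called from 0 to 4, 0 to 3, 0 to 1, 3 to 7, 3 to 8 and 0 to 5 in the same order. By the fold change rule the members ran from 0 to 1 in each genotype. The causes were not tested.

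With the Y-linked covariate, log2 values near 0 changed sign for Gpnmb (0.0220) and Apoe (-0.0928) with UTP in WT, for the difference of Trem2 (-0.00549), for Abca1 between untreated genotypes (-0.11) and for averaged Gpnmb (0.0336). Omitting 1 library gave ranges across 0 for UTP in WT of -0.13 to 0.00502 (Gpnmb), -0.0846 to 0.26 (Cd9) and -0.0713 to 0.24 (Apoe). For UTP in P2Y2 KO they were -0.00868 to 0.11 (Gpnmb), -0.15 to 0.00561 (Lgals3), -0.0307 to 0.25 (Abcg1), -0.0621 to 0.12 (Abhd5), -0.53 to 0.24 (Fabp4) and -0.0901 to 0.0197 (Cpt1a). The differences of Spp1 and Abca1 ran from -0.0154 to 0.70 and from -0.13 to 0.15, Abca1 between genotypes from -0.0226 to 0.20 untreated and from -0.0390 to 0.22 with UTP, and the averages of Gpnmb, Apoe and Fabp4 from -0.0439 to 0.0240, -0.11 to 0.0475 and -0.39 to 0.00606.

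The labels do not say that a pool number marks a shared mouse or culture. Same-numbered pools correlated at 0.42 between both P2Y2 KO groups, where Xist and the adipocyte markers followed the number too. They correlated at 0.0113 between both WT groups and at -0.14 to 0.11 across genotypes. The number was not taken to pair samples in the reported fit. The low values elsewhere do not bear on a pairing within P2Y2 KO, which the UTP tests there may thus leave out. The block tried was shared by both genotypes, and a block within P2Y2 KO alone was not tested. With the number as a block, 3 members passed with UTP in WT (Spp1 at an adjusted p of 0.0259) and 0 in P2Y2 KO, and 6, 8 and 3 passed between genotypes untreated, with UTP and on average. Of the further named genes, Itgax in P2Y2 KO gained a call under the block (0.0255) and averaged Olr1 lost its call (0.0631). From WT libraries alone, no named gene kept its WT call (0.0957 to 0.163). With 2 pools a group, small changes of low genes could be missed. Abcg1, the scarcest member, had an unadjusted p of 0.00956 with UTP in WT (edgeR). It did not pass after adjustment over all genes (adjusted p = 0.156, edgeR).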
